A study of Mus musculus with 9 samples.

Results

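Ultra-low-dose primed (ULP) and unprimed (UP) cells of the immortalised mouse microglia line BV-2 were compared, in 3 ULP libraries and 3 UP libraries out of 9 libraries sequenced, the other 3 being of high-dose primed (HP) cells. The libraries were chosen by their titles, which number them 4, 5 and 6 in each state. ULP cells had received LPS at 1 fg/ml by their description and then LPS at 100 ng/ml as restimulation, and UP cells had received the single stimulus of 100 ng/ml. A separate dose field of the labels gives 100 ng/ml as the first dose of the ULP libraries and 1 fg/ml as that of the HP libraries, the reverse of the descriptions. The groups below follow the titles and descriptions. All cells were BV-2 and no genetic change is named. The labels do not say whether the 3 libraries of a state came from separate cultures, so that each p-value reflects how far single libraries of a state differ, a spread that may be technical in part or whole. Of 48526 genes in the table, 14702 had enough counts to be tested, and total counts per library ranged from 24189203 to 26639663 in ULP and from 25649018 to 27802244 in UP cells.

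LPS is a cell wall component of Gram-negative bacteria that is bound by the receptor TLR4 with its partners CD14 and MD-2. The adaptors MyD88 and TRIF pass the signal on to the kinases of the NF-κB and MAP kinase pathways, which switch on cytokine genes, while a set of induced inhibitors limits the response. Microglia are the resident macrophages of the brain, and a first contact with LPS is known to alter their answer to a second one, either towards a stronger (trained) or towards a weaker (tolerant) response. Taken by titles and descriptions, the comparison of ULP with UP cells asks what a very small first dose leaves behind at the RNA level. Both states have by then met the same second dose.

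The cells carried macrophage RNA. Of 15 microglia markers, 11 had over 1 RPKM (reads per kilobase of gene, scaled to the library total) in all 6 libraries, with summed levels of 1810 to 2222 RPKM in ULP and 2205 to 2326 RPKM in UP libraries. Cx3cr1, the fractalkine receptor that marks microglia in the brain, was at or near 0 in all 6 libraries. So were the other microglia markers below that level, P2ry12, Siglech and Sall1. Summed markers of neurons stayed between 4.38 and 5.09 RPKM in ULP and between 4.23 and 6.53 RPKM in UP libraries, those of astrocytes between 0.950 and 1.32 RPKM in ULP and between 1.09 and 1.43 RPKM in UP libraries, and those of fibroblasts and oligodendrocytes under 0.3 RPKM in each library.

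The 3 ULP libraries were not alike. Relative to the mean of the UP libraries on the log2 scale of CPM (counts scaled to a common library size by the TMM method), 104 genes were over 2-fold higher and 35 over 2-fold lower in ULP 4, which is 0.945% of the genes tested. ULP 5 had 2029 such genes higher and 81 lower (14.4%), and ULP 6 had 2258 higher and 111 lower (16.1%). For scale, each UP library set against the other UP libraries gave 1.14% for UP 4, 5.24% for UP 5 and 2.89% for UP 6. ULP 4 thus had fewer genes past 2-fold than any UP library had within its own state, where the mean was of 2 libraries and not of 3. On the first principal component of the 6 libraries, which held 77.8% of the variance, ULP 4 lay at −20.1, ULP 5 at 63.4 and ULP 6 at 72.3, against −27.5, −33.0 and −55.1 for UP 4, 5 and 6. The root mean square log2 distance was 0.267 between ULP 4 and UP 4 and 0.258 between ULP 5 and ULP 6, against 0.728 between ULP 4 and ULP 5. Values are therefore given for each ULP library.

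By edgeR's quasi-likelihood test with Benjamini-Hochberg adjustment, 0 of the 14702 genes (0%) passed an adjusted p of 0.05 (smallest adjusted p = 0.169), so that no gene is called higher or lower in ULP than in UP cells in this fit. The unadjusted p was under 0.05 for 3990 genes (27.1%), of which 2550 were higher (17.3%) and 1440 lower (9.79%) in ULP. All 3 ULP libraries lay above all 3 UP libraries for 2183 genes (14.8%) and below them for 1978 (13.5%). By DESeq2, 1048 genes passed an adjusted p of 0.05 (7.13%), 1035 of them higher and 13 lower. Without ULP 4 the edgeR test called 2864 genes, 2008 higher (13.4%) and 856 lower (5.73%), with a smallest adjusted p of 0.0315. Leaving out any other library gave 0 calls.

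Among the genes that receive the LPS signal, the receptor Tlr4 itself stood out by its separation between the states. Tlr4 (chr4:66827551-66846581, GRCm38) had 24.3, 55.0 and 60.8 CPM in ULP 4, 5 and 6, against 18.7, 17.2 and 14.0 CPM in UP 4, 5 and 6. All 3 ULP libraries lay above all UP libraries, at 1.47, 3.32 and 3.67 times the UP mean on the log scale, with ULP 4 closest to UP. The log2 fold change was 1.49 ± 0.39 (SE) in the fit of all libraries (edgeR adjusted p = 0.169), 1.80 ± 0.31 (SE) without ULP 4 (edgeR adjusted p = 0.0315) and 0.58 with GC content corrected for, as described below. Chuk, which encodes the kinase IKKα, had 39.8, 65.8 and 71.5 CPM in ULP 4, 5 and 6, against 34.2, 28.8 and 28.3 CPM in UP 4, 5 and 6, with no overlap and a log2 fold change of 0.96 ± 0.28 (SE). Peli1, a ubiquitin ligase of Toll-like receptor signalling, had 12.6, 39.9 and 47.2 CPM in ULP 4, 5 and 6, against 13.7, 13.1 and 6.93 CPM in UP 4, 5 and 6. Here ULP 4 lay among the UP libraries and only ULP 5 and ULP 6 were above them. Myd88, the adaptor of most Toll-like receptors, had 127, 96.8 and 101 CPM in ULP 4, 5 and 6, against 133, 132 and 131 CPM in UP 4, 5 and 6. Its ULP libraries were all below the UP libraries, narrowly so for ULP 4, with a log2 fold change of −0.28 ± 0.14 (SE), and −0.040 with GC content corrected for. Of the 25 genes tested for the LPS receptor and its proximal signalling, 16 had a positive and 9 a negative log2 fold change (median 0.15, 0.0065 without UP 5 and −0.0028 with gene length corrected for, against −0.0084 over all genes tested). An unadjusted p under 0.05 was reached by 8 higher and 2 lower genes, against 17.3% and 9.79% of all genes. Without overlap, 4 lay above and 3 below the UP libraries, close to the 14.8% above and 13.5% below among all genes.

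The subunits of NF-κB, the transcription factor that LPS signalling releases into the nucleus, lay on different sides. Rel, which encodes c-Rel, had 23.8, 44.9 and 53.8 CPM in ULP 4, 5 and 6, against 23.5, 18.1 and 15.2 CPM in UP 4, 5 and 6. The groups did not overlap, although ULP 4 and UP 4 were close. Relb, a subunit of the non-canonical pathway, had 44.7, 35.3 and 37.4 CPM in ULP 4, 5 and 6, against 52.5, 56.9 and 54.1 CPM in UP 4, 5 and 6, and all ULP libraries lay below all UP libraries. The log2 fold change was 1.11 ± 0.35 (SE) for Rel and −0.48 ± 0.16 (SE) for Relb (edgeR adjusted p = 0.169 for both), and without ULP 4 it was 1.38 ± 0.30 (SE) (edgeR adjusted p = 0.0315) and −0.59 ± 0.17 (SE) (edgeR adjusted p = 0.0473). Nfkb2, the partner of Relb, had 183, 136 and 130.5 CPM in ULP 4, 5 and 6, against 206, 182 and 217 CPM in UP 4, 5 and 6, with ULP 4 between UP 5 and the other UP libraries. Rela, which encodes p65, had 125, 102 and 95.6 CPM in ULP 4, 5 and 6, against 128, 116 and 139.7 CPM in UP 4, 5 and 6 and overlapped between the states (log2 fold change −0.25 ± 0.15 (SE)). With GC content corrected for, the value was 0.80 for Rel and −0.18 for Relb.

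**Figure D1:**
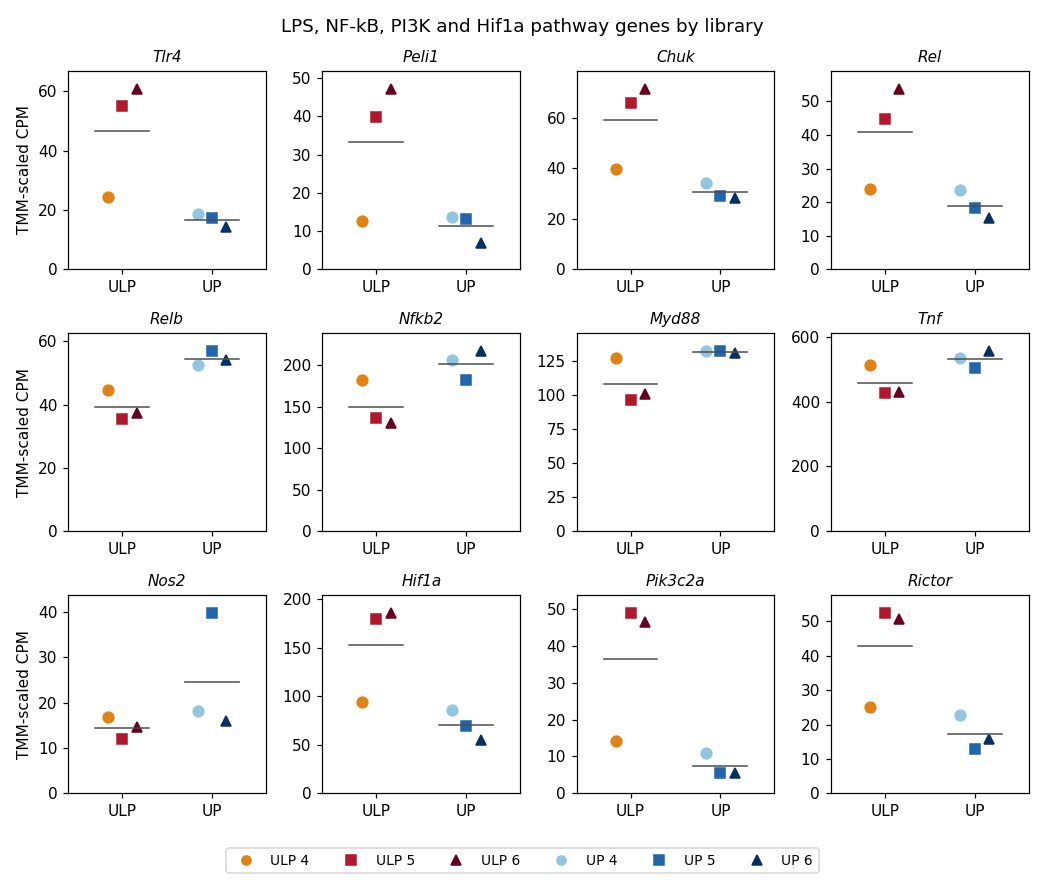
TMM-scaled CPM (vertical axis, from 0) of 12 genes of LPS, NF-κB, PI3K and Hif1a pathways in the 3 ULP libraries (left in each panel) and the 3 UP libraries (right); points are single libraries and lines the group means. For Tlr4, ULP 4 at 24.3 CPM sits close to the UP libraries at 14.0 to 18.7 CPM, while ULP 5 and ULP 6 sit at 55.0 and 60.8 CPM, and Tnf lies between 427 and 556 CPM in all 6 libraries.

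The cytokine genes that LPS induces mostly had slightly lower values in ULP than in UP libraries. Their median log2 fold change was −0.14, −0.013 without UP 5 and 0.032 with gene length corrected for. With GC content corrected for, their median was 0.085, against 0.070 for all genes in that fit. Tnf, the prototypical pro-inflammatory cytokine of microglia (chr17:35199367-35202007), had 513, 427 and 429 CPM in ULP 4, 5 and 6, against 536, 504 and 556 CPM in UP 4, 5 and 6. ULP 4 lay among the UP libraries and ULP 5 and ULP 6 below them, and the log2 fold change of −0.22 ± 0.11 (SE) became 0.014 with GC content corrected for. Il1b, another cytokine of the first hours of the response, had 306, 224 and 253 CPM in ULP 4, 5 and 6, against 317, 489.7 and 285 CPM in UP 4, 5 and 6, and the states overlapped, with UP 5 highest (log2 fold change −0.48 ± 0.20 (SE)). Ccl4, a chemokine that attracts monocytes, had 273, 222 and 264 CPM in ULP 4, 5 and 6, against 312, 412 and 291 CPM in UP 4, 5 and 6, with all ULP libraries below all UP libraries (log2 fold change −0.42 ± 0.16 (SE)). Ccl24, an eosinophil chemokine, had 11.4, 7.74 and 9.60 CPM in ULP 4, 5 and 6, against 14.5, 20.6 and 13.3 CPM in UP 4, 5 and 6 and likewise did not overlap. Of 11 cytokine genes tested, 2 had a positive and 9 a negative log2 fold change, and of 12 chemokine genes 6 and 6. Il6 had 3, 14 and 11 reads in ULP 4, 5 and 6, against 1, 8 and 2 reads in UP 4, 5 and 6. Il10 had 0, 1 and 1 read in ULP 4, 5 and 6, against 0, 1 and 0 reads in UP 4, 5 and 6. Both were too low to be tested, and a difference was not detectable at this depth.

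Nos2, the inducible nitric oxide synthase, had 16.8, 12.1 and 14.6 CPM in ULP 4, 5 and 6, against 18.1, 39.7 and 15.8 CPM in UP 4, 5 and 6. The states overlapped, and UP 5 was more than 2-fold above each other library. The fitted log2 fold change was −0.76 ± 0.32 (SE). Among the inhibitors of LPS signalling, Sigirr, an inhibitory receptor of the interleukin 1 receptor family, had 5.14, 4.27 and 3.98 CPM in ULP 4, 5 and 6, against 5.82, 6.86 and 7.04 CPM in UP 4, 5 and 6, without overlap. Socs3, an inhibitor of cytokine receptor signalling, had 60.9, 52.2 and 55.8 CPM in ULP 4, 5 and 6, against 71.3, 69.2 and 68.1 CPM in UP 4, 5 and 6, also without overlap (log2 fold change −0.30 ± 0.11 (SE), 0.0043 with GC content corrected for). Nfkbiz, which encodes the nuclear inhibitor-like protein IκBζ, was higher in ULP 5 and ULP 6 than in the other libraries, with 56.9, 73.0 and 73.4 CPM in ULP 4, 5 and 6, against 57.2, 45.2 and 48.9 CPM in UP 4, 5 and 6. Of 23 such brakes tested, 8 had a positive and 15 a negative log2 fold change. Their median was −0.23, and −0.0031 with GC content corrected for, against 0.070 for all genes in that fit. Without overlap, 9 lay below the UP libraries and 0 above them (13.5% and 14.8% of all genes did).

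The interferon-stimulated genes showed no common direction. Of 31 tested, 16 had a positive and 15 a negative log2 fold change, and their median difference from the UP mean was −0.029, −0.22 and 0.48 in ULP 4, 5 and 6. ULP 5 and ULP 6 thus lay on opposite sides. UP 5 lay at 0.42 and UP 6 at −0.38 against the mean of their own state. Eif2ak2, the kinase PKR that senses double-stranded RNA, had 29.3, 61.5 and 82.1 CPM in ULP 4, 5 and 6, against 24.6, 25.8 and 15.2 CPM in UP 4, 5 and 6, without overlap (log2 fold change 1.40 ± 0.40 (SE)). Gbp3, an interferon-induced guanylate-binding protein, had 0.751, 4.38 and 9.91 CPM in ULP 4, 5 and 6, against 0.904, 1.56 and 0.376 CPM in UP 4, 5 and 6, and ULP 4 lay among the UP libraries.

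In the PI3K pathway, which turns receptor signals into lipid messengers that recruit the kinase Akt, the larger differences were in other members than Pik3cg. Pik3cg, the catalytic subunit p110γ, had 56.9, 59.4 and 57.9 CPM in ULP 4, 5 and 6, against 54.8, 40.2 and 53.3 CPM in UP 4, 5 and 6. All ULP libraries lay above all UP libraries, with a log2 fold change of 0.23 ± 0.14 (SE), and the lowest ULP library was close to the highest UP library. Pik3c2a, a class II PI3 kinase (chr7:116337265-116443465), had 14.3, 48.8 and 46.5 CPM in ULP 4, 5 and 6, against 11.0, 5.60 and 5.57 CPM in UP 4, 5 and 6. Its log2 fold change was 2.30 ± 0.55 (SE) (edgeR adjusted p = 0.169), 2.68 ± 0.45 (SE) without ULP 4 (edgeR adjusted p = 0.0315) and 1.33 with GC content corrected for. Rictor, the subunit that defines mTOR complex 2, which phosphorylates Akt, had 25.2, 52.3 and 50.7 CPM in ULP 4, 5 and 6, against 22.8, 12.8 and 15.7 CPM in UP 4, 5 and 6. The groups did not overlap, although ULP 4 and UP 4 were close. Pik3r3, a regulatory subunit, had 5.61, 6.53 and 7.45 CPM in ULP 4, 5 and 6, against 4.48, 3.07 and 3.84 CPM in UP 4, 5 and 6, and all 3 ULP libraries stood above the UP mean, by 0.57, 0.79 and 0.97 log2 units in ULP 4, 5 and 6. Akt1 had 581, 489 and 458 CPM in ULP 4, 5 and 6, against 609, 520.0 and 658 CPM in UP 4, 5 and 6 and overlapped. Of 22 genes tested, 14 had a positive and 8 a negative log2 fold change (median 0.16, between −0.052 and 0.29 over the settings run), and 9 lay above the UP libraries without overlap and 0 below them (against 14.8% and 13.5% of all genes).

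Among the MAP kinases, Map2k1, which encodes the kinase MEK1, had 42.8, 56.4 and 59.6 CPM in ULP 4, 5 and 6, against 37.1, 40.2 and 31.0 CPM in UP 4, 5 and 6, and Braf, the kinase above it, had 15.4, 46.3 and 51.1 CPM in ULP 4, 5 and 6, against 14.9, 9.64 and 10.8 CPM in UP 4, 5 and 6. Both were without overlap, with log2 fold changes of 0.55 ± 0.17 (SE) and 1.68 ± 0.53 (SE). Mapk3, which encodes ERK1, had 69.1, 50.6 and 49.3 CPM in ULP 4, 5 and 6, against 68.1, 81.0 and 75.1 CPM in UP 4, 5 and 6, with ULP 4 among the UP libraries and ULP 5 and ULP 6 below. The list had no common direction, as 11 of 19 genes tested had a positive and 8 a negative log2 fold change (median 0.066, −0.094 without UP 5). Without overlap, 6 lay above and 4 below the UP libraries, against 14.8% and 13.5% of all genes.

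Hif1a, the oxygen-regulated transcription factor that also drives glycolysis in LPS-treated macrophages, had higher values in ULP libraries, whereas most glycolysis genes had lower values. Hif1a (chr12:73901324-73947554) had 93.8, 179 and 185 CPM in ULP 4, 5 and 6, against 85.3, 69.6 and 55.3 CPM in UP 4, 5 and 6. All ULP libraries lay above all UP libraries, at 1.36, 2.59 and 2.69 times the UP mean. The log2 fold change was 1.12 ± 0.31 (SE) (edgeR adjusted p = 0.169), 1.38 ± 0.26 (SE) without ULP 4 (edgeR adjusted p = 0.0315) and 0.50 with GC content corrected for. Pfkfb3, which makes the activator of phosphofructokinase, had 51.2, 60.5 and 60.6 CPM in ULP 4, 5 and 6, against 47.4, 30.3 and 44.3 CPM in UP 4, 5 and 6, also without overlap. Tpi1, the glycolytic triose phosphate isomerase, had 815, 554 and 525 CPM in ULP 4, 5 and 6, against 833, 1100.2 and 959 CPM in UP 4, 5 and 6, with all ULP libraries below all UP libraries (log2 fold change −0.61 ± 0.22 (SE), −0.35 with GC content corrected for). Of the 23 genes of this list, 3 had a positive and 20 a negative log2 fold change (median −0.32, −0.19 with GC content corrected for), and 2 lay above and 10 below the UP libraries without overlap, against 14.8% and 13.5% of all genes. The median difference from the UP mean was −0.12, −0.43 and −0.60 in ULP 4, 5 and 6.

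The 2 membrane subunits of the phagocyte NADPH oxidase, the enzyme that makes superoxide, lay on opposite sides. Cybb, the catalytic subunit gp91phox, had 102, 158 and 181 CPM in ULP 4, 5 and 6, against 102, 72.8 and 63.6 CPM in UP 4, 5 and 6, and Cyba, its partner p22phox, had 762, 521 and 516 CPM in ULP 4, 5 and 6, against 782, 1138 and 880.0 CPM in UP 4, 5 and 6. In both genes the groups did not overlap, although ULP 4 and UP 4 were all but equal for Cybb, with log2 fold changes of 0.89 ± 0.28 (SE) for Cybb and −0.64 ± 0.23 (SE) for Cyba (0.42 and −0.35 with GC content corrected for), and the 2 transcripts differ in GC content (42.4% and 57.0%).

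**Figure D2:**
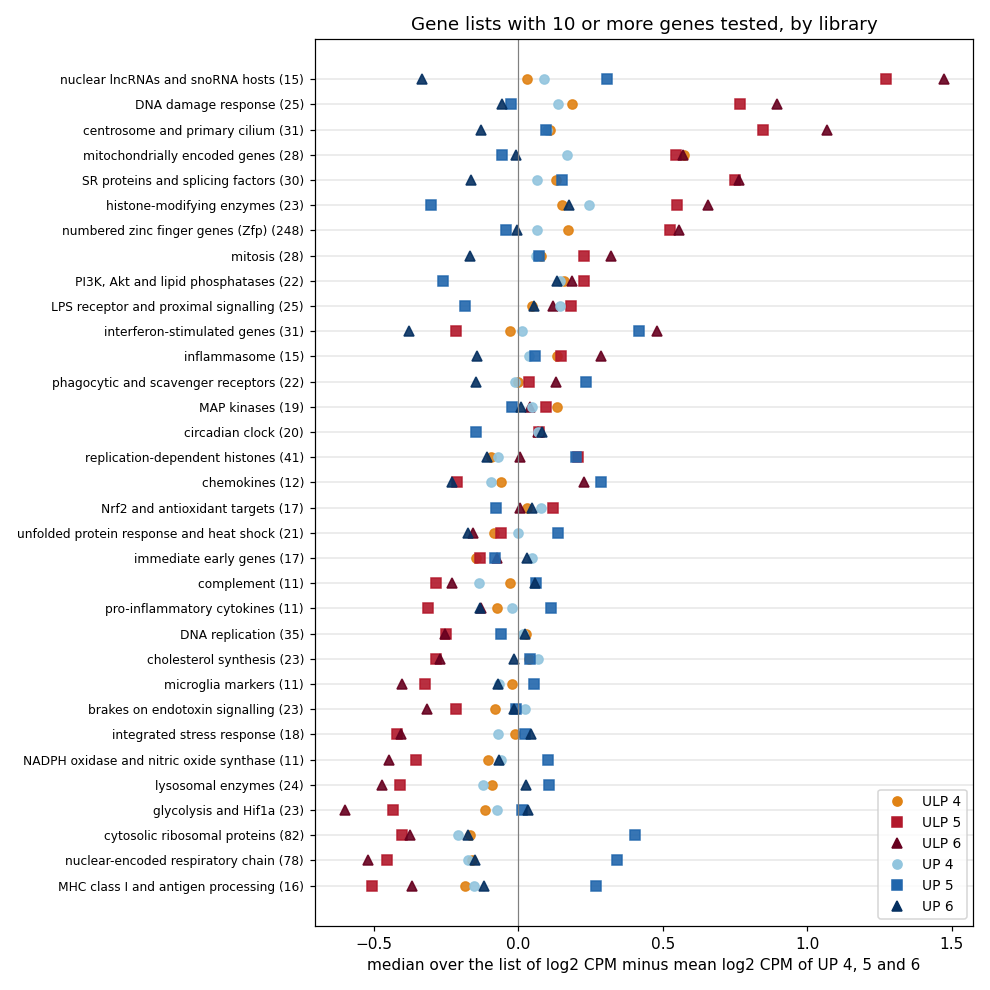
Median log2 difference from the UP mean (horizontal axis) over each of the gene lists with 10 or more genes tested (number in brackets), with 1 point per library; ULP libraries are in orange to dark red and UP libraries in blue. ULP 5 and ULP 6 both sit further from 0 than the other 4 libraries for 19 of 33 lists, ULP 4 sits within the range of the UP libraries for 19, and all 3 ULP libraries sit together at 0.55 to 0.57 for the mitochondrially encoded genes.

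Among named genes with a mean of at least 5 CPM over the 6 libraries, an unadjusted p under 0.05 and no overlap, those with the largest positive log2 fold changes were low in UP libraries and in ULP 4. Most reached that mean through ULP 5 and ULP 6 alone, so that their place here is in part set by the rule. Arhgap5, a GTPase-activating protein (chr12:52503763-52571978), had 26, 892 and 1124 counts in ULP 4, 5 and 6, against 18, 7 and 8 counts in UP 4, 5 and 6, a log2 fold change of 5.89 ± 1.57 (SE). ULP 4 lay above the UP libraries by a few reads only, and ULP 5 and ULP 6 were far above all other libraries. Rock1, a kinase that acts on the actin cytoskeleton, had 42, 1241 and 1502 counts in ULP 4, 5 and 6, against 14, 25 and 28 counts in UP 4, 5 and 6. Ccdc88a, which encodes the actin-binding protein girdin, had 101, 2699 and 3512 counts in ULP 4, 5 and 6, against 82, 57 and 43 counts in UP 4, 5 and 6. In each of them ULP 4 lay just above the UP libraries and far under ULP 5 and ULP 6. Smc4, a condensin subunit that compacts chromosomes, had 136, 2424 and 2867 counts in ULP 4, 5 and 6, against 82, 100 and 33 counts in UP 4, 5 and 6, and Atrx, a chromatin remodeller, had 142, 2570 and 3013 counts in ULP 4, 5 and 6, against 130, 116 and 70 counts in UP 4, 5 and 6. The remaining genes of the 10 with the largest positive log2 fold change were Dzip3 (5.22), Zfp518a (4.75), Prpf39 (4.26), Casp8ap2 (4.17) and Dynlt3 (4.07). All 10 had an edgeR adjusted p of 0.0315 without ULP 4, against 0.169 in the fit of all libraries. That value is the smallest of the fit without ULP 4, and the genes were picked from the same data, so it adds no separate support.

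By the same rule, the largest negative log2 fold changes were smaller in size. Scand1, a SCAN domain protein (chr2:156311846-156312704), had 14.7, 10.7 and 12.4 CPM in ULP 4, 5 and 6, against 29.8, 30.003 and 33.3 CPM in UP 4, 5 and 6, a log2 fold change of −1.30 ± 0.54 (SE) (−0.86 with GC content corrected for). Here all 3 ULP libraries stood apart, at −1.08, −1.53 and −1.31 log2 units from the UP mean in ULP 4, 5 and 6, and ULP 4 differed by about as much as the others. Selenbp1, a selenium-binding protein with a near-identical gene copy that makes its counts uncertain, had 8.77, 5.62 and 7.60 CPM in ULP 4, 5 and 6, against 9.20, 25.9 and 9.56 CPM in UP 4, 5 and 6, and UP 5 was far above the other UP libraries. Gadd45gip1, a protein of the mitochondrial ribosome, had 45.4, 32.4 and 28.9 CPM in ULP 4, 5 and 6, against 53.6, 62.6 and 65.2 CPM in UP 4, 5 and 6. Map1lc3a, an autophagosome protein of the LC3 family, had 12.2, 9.09 and 9.16 CPM in ULP 4, 5 and 6, against 14.5, 19.7 and 15.4 CPM in UP 4, 5 and 6. The other genes of the 10 were Isoc2b (−0.76), Ccl24 (−0.75), Tmem160 (−0.75), Pgp (−0.74), Jund (−0.72) and Sertad1 (−0.70). Without ULP 4, Isoc2b, Ccl24, Map1lc3a and Sertad1 passed an edgeR adjusted p of 0.05 (0.0335, 0.0433, 0.0346 and 0.0472), and Scand1 did not (0.121). These genes too were picked from the same data.

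The genes at the 2 ends differed in base composition, which the following stretches of 120 bases from the middle of the coding sequence show, with G and C in capitals. They are from the mouse reference transcripts of GENCODE vM39 and belong to 2 of the genes with the largest differences at either end.
Arhgap5 (chromosome 12, coding bases 2195 to 2314, 35.8% GC): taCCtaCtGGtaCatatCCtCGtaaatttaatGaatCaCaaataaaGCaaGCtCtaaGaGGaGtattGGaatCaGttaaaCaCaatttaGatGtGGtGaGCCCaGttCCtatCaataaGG
Dzip3 (chromosome 16, coding bases 1747 to 1866, 39.2% GC): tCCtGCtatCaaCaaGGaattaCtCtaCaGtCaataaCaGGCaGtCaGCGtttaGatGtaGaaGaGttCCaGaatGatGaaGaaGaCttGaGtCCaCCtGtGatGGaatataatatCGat
Scand1 (chromosome 2, coding bases 154 to 273, 75.8% GC): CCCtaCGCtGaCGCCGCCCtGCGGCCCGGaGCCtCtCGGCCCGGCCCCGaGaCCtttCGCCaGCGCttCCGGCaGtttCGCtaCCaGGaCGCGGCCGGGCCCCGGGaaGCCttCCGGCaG
Selenbp1 (chromosome 3, coding bases 658 to 777, 58.3% GC): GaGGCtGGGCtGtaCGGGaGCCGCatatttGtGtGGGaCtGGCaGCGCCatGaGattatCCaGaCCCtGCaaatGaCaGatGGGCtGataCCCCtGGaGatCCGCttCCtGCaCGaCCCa
The 2 genes that were higher in ULP have mostly A and T in their stretch, and those that were lower have mostly G and C.

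A like difference in base composition was seen across all genes. Genes for which all ULP libraries lay above the UP libraries had a median GC content of 44.2% and a median length of 5.27 kb, those for which all ULP libraries lay below had 53.6% and 2.15 kb, and all genes tested had 49.4% and 3.24 kb. Among 244 genes with 30 to 38% GC, the median difference from the UP mean was 0.25, 1.505 and 1.63 log2 units in ULP 4, 5 and 6, against 0.13, 0.19 and −0.30 in UP 4, 5 and 6, and 41.4% of these genes lay above the UP libraries and 0% below. Among 932 genes with 58 to 75% GC, it was −0.12, −0.30 and −0.37 in ULP 4, 5 and 6, against −0.04, −0.03 and 0.08 in UP 4, 5 and 6, and 2.90% lay above and 31.7% below. Across 14565 genes, which are not independent replicates, the log2 fold change and GC content had a Pearson r of −0.54. The part of GC content in the differences between the states was not tested. With a trend over GC content removed from each library, which was added once the data had been seen, the median log2 fold change of all genes was 0.070, against −0.0084 without it, and values given as corrected for GC content come from that fit.

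**Figure D3:**
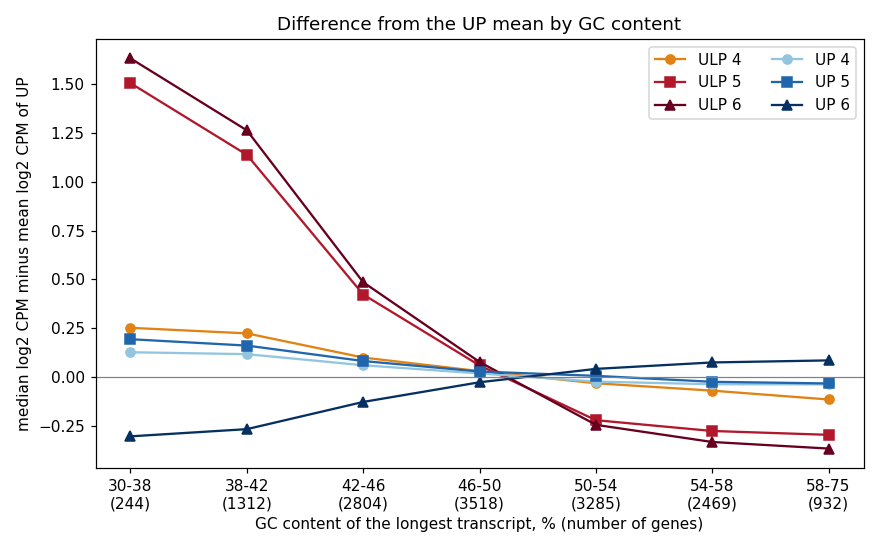
Median log2 difference from the UP mean (vertical axis) of genes grouped by the GC content of their longest transcript (horizontal axis, number of genes in brackets), with 1 line per library. ULP 5 and ULP 6 run from above 1.5 at 30 to 38% GC to about −0.3 at 58 to 75% GC, ULP 4 runs from 0.25 to −0.12 and UP 6 slopes the other way.

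Long nuclear RNAs were higher in ULP 5 and ULP 6. Malat1, a non-coding RNA of nuclear speckles (chr19:5795690-5802672), had 34.7, 238 and 203 CPM in ULP 4, 5 and 6, against 22.5, 21.3 and 15.9 CPM in UP 4, 5 and 6. All ULP libraries lay above the UP libraries, at 1.76, 12.04 and 10.3 times the UP mean, with ULP 4 nearest to UP. Its log2 fold change was 2.99 ± 0.95 (SE), and 2.65 with GC content corrected for. Xist, the RNA that silences an X chromosome (chrX:103460373-103483233), had 23.04, 120.1 and 169 CPM in ULP 4, 5 and 6, against 14.5, 9.22 and 9.83 CPM in UP 4, 5 and 6, and ULP 4 was again the ULP library nearest to UP. All 15 nuclear RNAs and small nucleolar RNA hosts tested had a positive log2 fold change (median 0.98), with a median of 0.029, 1.27 and 1.47 in ULP 4, 5 and 6, and 3 lay above the UP libraries without overlap, a share near the 14.8% of all genes. Their share of all counts was 0.0151%, 0.0551% and 0.0557% in ULP 4, 5 and 6, against 0.0141%, 0.0162% and 0.0109% in UP 4, 5 and 6 (exact two-sided permutation p = 0.20, n = 3 each, adjusted over 4 shares 0.267).

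Genes for splicing and chromatin mostly had higher values in ULP 5 and ULP 6. Of 30 SR proteins and splicing factors, 29 had a positive log2 fold change (median 0.50, 0.22 with GC content corrected for and 0.12 with gene length as well), and 7 lay above the UP libraries without overlap and 1 below, against 14.8% and 13.5% of all genes. Srsf1, the prototype SR protein, had 236, 376 and 363 CPM in ULP 4, 5 and 6, against 207, 183 and 164 CPM in UP 4, 5 and 6, and its log2 fold change of 0.82 ± 0.26 (SE) was 0.14 with GC content corrected for. Luc7l3, a protein of the U1 particle, had 23.6, 84.0 and 97.6 CPM in ULP 4, 5 and 6, against 18.01, 26.3 and 12.1 CPM in UP 4, 5 and 6, with ULP 4 among the UP libraries. Of 23 enzymes that modify histones, 18 had a positive value (median 0.43, 0.20 with gene length corrected for). Without overlap, 6 lay above the UP libraries and 1 below, against 14.8% and 13.5% of all genes. Among the 23 enzymes, Taf1, the largest subunit of TFIID, had 41.8, 74.3 and 74.9 CPM in ULP 4, 5 and 6, against 39.6, 28.2 and 28.8 CPM in UP 4, 5 and 6, and Ash1l, a methyltransferase of histone 3 lysine 36, had 16.1, 55.1 and 56.5 CPM in ULP 4, 5 and 6, against 16.3, 8.16 and 10.01 CPM in UP 4, 5 and 6. Taf1 did not overlap between the states and Ash1l did, through ULP 4. Of 248 numbered zinc finger genes, 185 had a positive log2 fold change (median 0.43), and 79 (against 14.8% of all genes) lay above and 13 (against 13.5%) below the UP libraries.

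Centrosome genes had a median difference from the UP mean of 0.11, 0.85 and 1.07 in ULP 4, 5 and 6, DNA damage genes of 0.18, 0.77 and 0.89 and mitosis genes of 0.078, 0.23 and 0.32. Pcm1, the scaffold of centriolar satellites, had 8.38, 55.0 and 61.3 CPM in ULP 4, 5 and 6, against 6.96, 9.13 and 3.16 CPM in UP 4, 5 and 6, and Cep135, a centriole protein, had 4.70, 14.1 and 15.1 CPM in ULP 4, 5 and 6, against 4.17, 3.91 and 2.11 CPM in UP 4, 5 and 6. ULP 4 lay among the UP libraries for Pcm1 and just above them for Cep135. Of 31 centrosome and cilium genes, 25 had a positive log2 fold change (median 0.64, 0.51 with GC content corrected for), and 7 lay above the UP libraries and 1 below (against 14.8% and 13.5% of all genes). Cenpf, a kinetochore protein, had 1.58, 27.1 and 36.7 CPM in ULP 4, 5 and 6, against 1.65, 2.69 and 1.09 CPM in UP 4, 5 and 6, and Aspm, a spindle pole protein, had 11.7, 29.8 and 31.2 CPM in ULP 4, 5 and 6, against 11.3, 8.79 and 6.48 CPM in UP 4, 5 and 6. Of 28 mitosis genes 18 had a positive and 10 a negative value (median 0.18). Without overlap, 4 of them lay above and 3 below the UP libraries, against 14.8% and 13.5% of all genes. Of 35 DNA replication genes 11 had a positive and 24 a negative value (median −0.15), and 0 lay above and 2 below. With GC content and gene length corrected for, the medians were 0.091 for mitosis and −0.020 for DNA replication, against 0.072 for all genes. Atm, the kinase that senses double-strand breaks, had 23.9, 49.3 and 54.8 CPM in ULP 4, 5 and 6, against 22.96, 14.3 and 14.9 CPM in UP 4, 5 and 6, without overlap. Of 25 genes of the DNA damage response, 19 had a positive value (median 0.64, 0.21 with GC content corrected for).

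By the width of the gap between the lowest library of one state and the highest of the other, mt-Atp8, a subunit of ATP synthase encoded in mitochondria, came first among the higher genes with a mean CPM of at least 5, with 159, 340.0 and 244 CPM in ULP 4, 5 and 6, against 64.0, 22.8 and 37.1 CPM in UP 4, 5 and 6. Its gap was 1.31 log2 units, its log2 fold change of 2.58 ± 0.74 (SE) was 0.90 with GC content corrected for, and the gene overlaps mt-Atp6, so that reads of the shared bases cannot be told apart. Lypla1, a thioesterase that removes palmitate from proteins, had 20.7, 31.8 and 30.02 CPM in ULP 4, 5 and 6, against 11.8, 9.85 and 8.96 CPM in UP 4, 5 and 6. Its ULP libraries lay 1.02, 1.64 and 1.56 log2 units above the UP mean in ULP 4, 5 and 6. The log2 fold change of Lypla1 was 1.43, and 0.64 with GC content corrected for. Trp53inp1, a p53 target, had 3.60, 15.3 and 12.8 CPM in ULP 4, 5 and 6, against 2.12, 1.68 and 2.07 CPM in UP 4, 5 and 6, and here ULP 4 lay nearer to the UP libraries than to ULP 5 and ULP 6.

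Among the genes with the widest gap in the other direction were 3 transcription factors of the early LPS response. Junb, an AP-1 subunit (chr8:84976909-84978748), had 75.2, 70.7 and 70.2 CPM in ULP 4, 5 and 6, against 106, 97.5 and 108 CPM in UP 4, 5 and 6. Cebpb (chr2:167688915-167690432), a C/EBP factor that drives inflammatory genes in macrophages, had 41.97, 38.03 and 41.7 CPM in ULP 4, 5 and 6, against 52.9, 69.1 and 54.8 CPM in UP 4, 5 and 6. Cebpd (chr16:15887286-15889545), a related factor, had 30.3, 23.98 and 29.2 CPM in ULP 4, 5 and 6, against 39.8, 42.5 and 41.8 CPM in UP 4, 5 and 6. In each of them the 3 ULP libraries lay close together and below all UP libraries, at −0.46, −0.55 and −0.56 log2 units from the UP mean for Junb, −0.48, −0.62 and −0.49 for Cebpb and −0.45, −0.78 and −0.50 for Cebpd in ULP 4, 5 and 6. The log2 fold changes were −0.53 ± 0.27 (SE), −0.54 ± 0.25 (SE) and −0.57 ± 0.23 (SE), and did not pass the edgeR test without ULP 4 either (adjusted p = 0.205, 0.174 and 0.107). With GC content corrected for they were −0.18, −0.11 and −0.36. Jund, another AP-1 subunit, had 22.9, 16.9 and 17.2 CPM in ULP 4, 5 and 6, against 26.6, 35.4 and 31.9 CPM in UP 4, 5 and 6, and Klf2, a factor that restrains macrophage activation, had 9.60, 7.04 and 9.28 CPM in ULP 4, 5 and 6, against 10.9, 16.9 and 14.0 CPM in UP 4, 5 and 6. Other early genes lay on the opposite side without overlap. Klf6, a zinc finger factor, had 50.4, 62.7 and 70.7 CPM in ULP 4, 5 and 6, against 45.0, 34.4 and 34.2 CPM in UP 4, 5 and 6 (log2 fold change 0.69 ± 0.19 (SE), 0.24 with GC content corrected for), and Btg2, an antiproliferative gene, had 19.9, 26.6 and 23.3 CPM in ULP 4, 5 and 6, against 17.9, 15.5 and 16.8 CPM in UP 4, 5 and 6 (log2 fold change 0.47 ± 0.15 (SE)). Of the 17 immediate early genes tested, 6 had a positive and 11 a negative log2 fold change. Their median was −0.13, and 0.14 with GC content corrected for, against 0.070 for all genes in that fit. Of them, 3 lay above and 5 below the UP libraries, against 14.8% and 13.5% of all genes.

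**Figure D4:**
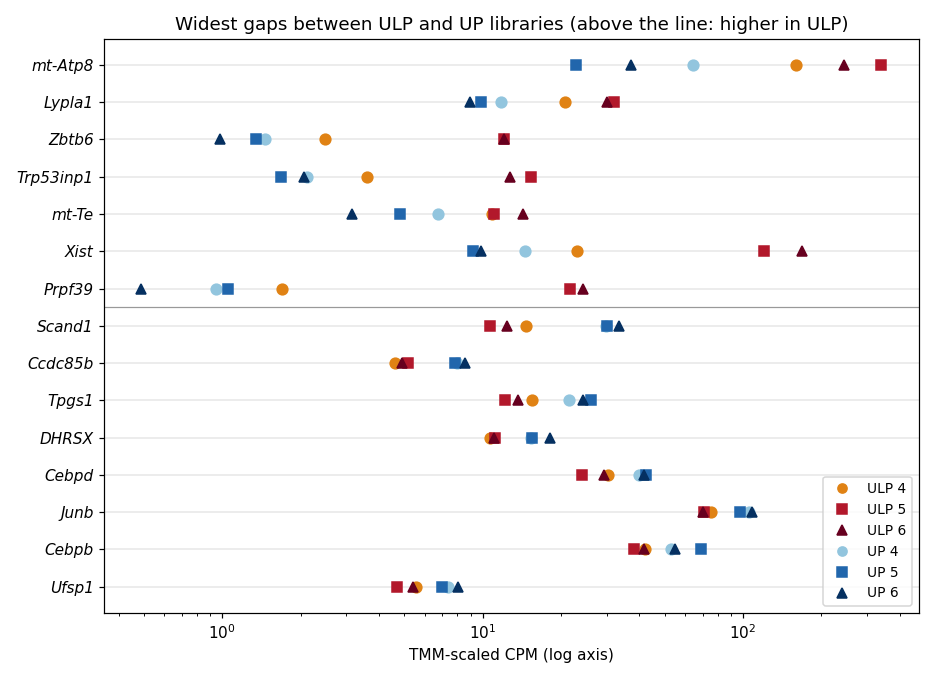
TMM-scaled CPM (horizontal log axis) of the genes with the widest gap between the states, 7 higher and 8 lower in ULP, with 1 point per library; ULP libraries are in orange to dark red and UP libraries in blue. In the lower block ULP 4 lies with ULP 5 and ULP 6, as for Junb at 70.2 to 75.2 CPM in ULP against 97.5 to 108 CPM in UP, while in the upper block it often lies between.

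For mitochondrial RNA the 3 ULP libraries lay together. Genes encoded in the mitochondrial genome took 4.30%, 4.20% and 4.13% of the counts in ULP 4, 5 and 6, against 3.58%, 2.80% and 3.64% in UP 4, 5 and 6. Each ULP library was above each UP library, with means of 4.21 ± 0.0871% in ULP and 3.34 ± 0.467% in UP (SD, n = 3 each, exact two-sided permutation p = 0.10, the smallest that 3 against 3 libraries allow, adjusted over 4 shares 0.267). Of 28 such genes tested, 23 had a positive and 5 a negative log2 fold change (median 0.50, turning to −0.40 with GC content corrected for), and 15 lay above the UP libraries without overlap and 0 below (against 14.8% and 13.5% of all genes). Those above were 8 of 13 messenger RNAs, 2 of 2 ribosomal RNAs and 5 of 13 transfer RNAs. Among all genes with 30 to 38% GC, 41.4% lay above. The median difference from the UP mean was 0.57, 0.55 and 0.57 in ULP 4, 5 and 6.

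mt-Atp6, another ATP synthase subunit, had 1802, 2316 and 2359.9 CPM in ULP 4, 5 and 6, against 1283, 821 and 1050.5 CPM in UP 4, 5 and 6, and mt-Rnr2, the large ribosomal RNA, had 554, 1079.7 and 1208 CPM in ULP 4, 5 and 6, against 378, 406 and 273 CPM in UP 4, 5 and 6. Both were without overlap, with log2 fold changes of 1.04 ± 0.34 (SE) and 1.43 ± 0.49 (SE), which were −0.16 and 0.068 with GC content corrected for. Of the messenger RNAs of complex I, mt-Nd3, mt-Nd5, mt-Nd2, mt-Nd4 and mt-Nd6 lay above the UP libraries without overlap, with log2 fold changes of 0.97, 0.75, 0.49, 0.51 and 0.38 that turned to −0.41, −0.35, −0.66, −0.65 and −0.92 with GC content corrected for. The others, mt-Nd1 and mt-Nd4l, overlapped between the states, at 0.20 and 0.56. The 3 subunits of cytochrome oxidase overlapped as well, at −0.0082 for mt-Co1, −0.026 for mt-Co2 and 0.15 for mt-Co3. Mitochondrial transcripts are low in GC (median 36.2%).

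**Figure D5:**
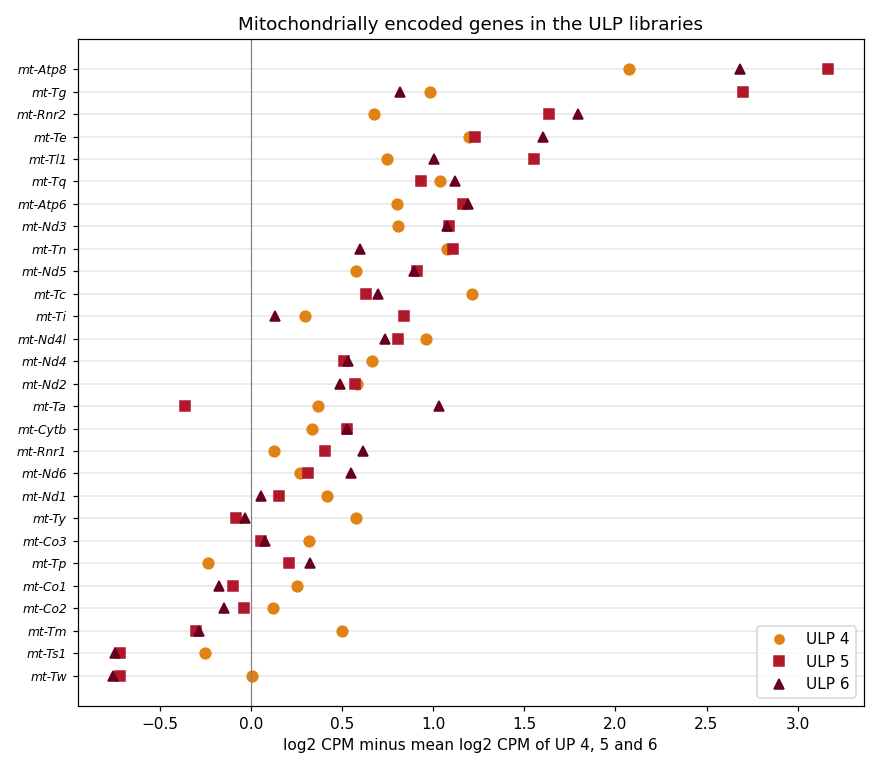
Log2 difference from the UP mean (horizontal axis) of the 28 mitochondrially encoded genes tested, with 1 point per ULP library (ULP 4 orange circles, ULP 5 red squares, ULP 6 dark red triangles). Most genes lie right of 0 in each ULP library, although their median log2 fold change turned to −0.40 with GC content corrected for, mt-Atp8 furthest among the messenger RNAs at 2.07 to 3.17, and mt-Co1 and mt-Co2 lie at both sides of 0.

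The nuclear genes of the respiratory chain lay on the other side. Of 78 tested, 11 had a positive and 67 a negative log2 fold change (median −0.37, −0.27 with GC content corrected for and −0.22 without UP 5), and 22 lay below the UP libraries without overlap and 1 above, against 13.5% and 14.8% of all genes. Cox6a1, a subunit of cytochrome oxidase, had 265, 195 and 203 CPM in ULP 4, 5 and 6, against 291, 446 and 339 CPM in UP 4, 5 and 6, and Ndufa3, of complex I, had 57.4, 51.6 and 48.3 CPM in ULP 4, 5 and 6, against 60.7, 97.5 and 65.8 CPM in UP 4, 5 and 6. In both, UP 5 had the highest value and ULP 4 lay just below the other UP libraries. Of 82 cytosolic ribosomal protein genes, 18 had a positive and 64 a negative value (median −0.34, −0.14 without UP 5 and −0.100 with GC content and gene length corrected for), and 18 lay below the UP libraries and 0 above (against 13.5% and 14.8% of all genes). Rpl37a, of the large subunit, had 453, 366 and 340.1 CPM in ULP 4, 5 and 6, against 462, 852 and 554 CPM in UP 4, 5 and 6, and Rps28, of the small subunit, had 471, 385 and 359 CPM in ULP 4, 5 and 6, against 511, 757 and 574 CPM in UP 4, 5 and 6. All genes of the list together took 5.04%, 4.60% and 4.63% of the counts in ULP 4, 5 and 6, against 4.99%, 7.06% and 5.07% in UP 4, 5 and 6, so that UP 5 stood apart from all other libraries.

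Lysosomal and antigen presentation genes, through which microglia degrade and display what they take up, mostly had lower values in ULP 5 and ULP 6. Of 24 genes for lysosomal enzymes and other lysosomal proteins, 22 had a negative value (median −0.31, −0.15 with GC content corrected for), with a median of −0.092, −0.41 and −0.47 in ULP 4, 5 and 6. Grn, which encodes progranulin, had 1475, 1119.7 and 1076 CPM in ULP 4, 5 and 6, against 1502, 1789.8 and 1718 CPM in UP 4, 5 and 6, with a log2 fold change of −0.45 ± 0.17 (SE) (−0.16 with GC content corrected for). B2m, the light chain of MHC class I, had 1075, 986 and 1094 CPM in ULP 4, 5 and 6, against 1259, 1705 and 1305 CPM in UP 4, 5 and 6, and Cd74, the invariant chain of class II, had 772, 559.5 and 599.7 CPM in ULP 4, 5 and 6, against 794, 1174 and 864 CPM in UP 4, 5 and 6. Both lay below the UP libraries without overlap, ULP 4 narrowly for Cd74. Of 16 genes of MHC class I and antigen processing, 14 had a negative value (median −0.38, −0.11 with GC content corrected for and −0.17 without UP 5), and 7 lay below and 1 above the UP libraries, against 13.5% and 14.8% of all genes. Among 22 phagocytic and scavenger receptors and their partners, 12 had a positive and 10 a negative value (median 0.067, −0.13 with GC content corrected for). Of these, Mertk, a receptor for apoptotic cells, had 6.05, 7.81 and 10.2 CPM in ULP 4, 5 and 6, against 5.82, 4.21 and 5.08 CPM in UP 4, 5 and 6, and Apoe, a lipid carrier, had 2866, 2390.0 and 2282 CPM in ULP 4, 5 and 6, against 3108, 4872 and 3415 CPM in UP 4, 5 and 6. Mertk was higher and Apoe lower in all ULP libraries than in all UP libraries.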

How the data were processed

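Poly(A) RNA libraries of restimulated BV-2 cells were used, 3 ULP and 3 UP, with 3 HP libraries added to the fit only. Per the labels and supplement, base calls were converted with bcl2fastq 1.8.4, reads were mapped by TopHat2 2.1.0 and assigned to genes by featureCounts 1.5.0. The deposited counts are raw, and the authors divided them by library total and gene length to obtain RPKM. The build is GRCm38 in the submitters' processing notes and another in the supplement. No strand setting for the counting was found in the sources, which leaves overlapping and antisense genes uncertain. Gene positions are those of RefSeq on GRCm38.p6, and GC content is that of the longest transcript of each Ensembl gene ID in GENCODE vM39. The deposited RPM table was not used. No value column lacked a sample.

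Genes were filtered with filterByExpr, scaled by TMM and fitted over all 9 libraries with edgeR 4.0.16 in R 4.3.3 (quasi-likelihood test, Benjamini-Hochberg adjustment). The SE printed with a log2 fold change is its size divided by the square root of the F statistic of the edgeR test. It is thus approximate, above all for genes with few counts. Differences per library used log2 CPM with a prior count of 2. Gene lists, 38 with a member tested, are described by counts and medians and carry no test. Named genes were, per direction, the 10 with the largest log2 fold change among named genes with a mean CPM of at least 5, an unadjusted p under 0.05 and no overlap of the states, the 8 with the widest gap, up to 3 per list with the smallest unadjusted p under 0.05, and the genes the study measured. Of the genes the rule gave, 2 are not reported here and others are given only within counts. Genes outside the rule (most mitochondrial complex I and cytochrome oxidase genes, and the microglia markers Cx3cr1, P2ry12, Siglech and Sall1) were chosen after their values were seen. The members and lists were chosen with earlier results of these data known. Alternatives were RLE size factors, DESeq2 1.42.0, no filter, a fit of the 6 libraries, limma 3.58.1 on log2(RPKM + 0.1) and log2(RPKM + 1), a replicate block, offsets for gene length and leaving out each library. Offsets for GC content, found for 99.1% of genes, and a fit of ULP and UP without ULP 4 were added after seeing the data. The offsets removed a loess trend (span 0.3). The fit was tested on simulated counts in which 200 genes differed between ULP and UP. At log2 fold changes of 1, 2 and 3 it recovered 51.5%, 96.5% and 99.5% of them, with 6, 9 and 13 false calls. These shares hold for the simulated spread only.

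Same-numbered ULP and UP libraries did not deviate together, and the numbers were not taken as pairs.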

Additional observations from a re-analysis of the deposited data

How the results depend on the processing

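The number of genes called by edgeR, 0 in the fit of all libraries, was 1048 by DESeq2, 0 to 2864 when single libraries were left out (2864 without ULP 4, 0 without any other) and 4604 when only the ULP and UP libraries without ULP 4 were fitted, a setting chosen after seeing the data. With a replicate block it was 0, with 2614 genes at an unadjusted p under 0.05, and same-numbered ULP and UP libraries correlated at −0.30, 0.11 and −0.52, so that the numbers gave no pairs. It was 0 under each of the other alternatives. The number of genes without overlap between the states, 4161, was 4442 to 9570 with 1 library left out (9570 without ULP 4, 6276 without UP 4 and 7143 without UP 5), as fewer libraries overlap less, and by deposited RPKM it was 4065 with 2380 higher and 1685 lower. Genes over 2-fold from the UP mean in ULP 4 were 282 with a prior count of 0.5, against 139. The number of lists with a positive median was 16 to 19 of 38 with single libraries left out, against 18. The mitochondrial share differed by 0.598 to 1.02 percentage points, the ribosomal protein share by −1.31 to −0.277, the nuclear RNA share by 0.0213 to 0.0417 and the share of the 10 most abundant genes by −1.10 to −0.360 with single libraries left out. Of 135 named genes, 53 passed by DESeq2, 95 without ULP 4 and 118 in the fit of the ULP and UP libraries without ULP 4. Their log2 fold changes kept their sign in every alternative except the offsets. With the GC content offset, the GC content and gene length offset, and the replicate block with the GC content offset, in this order, they were 0.0043, 0.038 and 0.010 for Socs3, −0.14, −0.38 and −0.14 for Slc7a11, −0.12, −0.14 and −0.12 for Canx, −0.15, −0.24 and −0.15 for Pola1, −0.19, −0.32 and −0.20 for Lamp2, 0.096, 0.059 and 0.097 for Akt1, 0.014, 0.12 and 0.015 for Tnf and 0.061, 0.11 and 0.061 for Rela. With the GC content and gene length offset alone, Cebpb (to 0.012), Mapk8 (to −0.046), Atf5 (to 0.0021), Ptprc (to −0.15) and Myd88 (to 0.0046) turned. mt-Atp6 was −0.16 with the GC content offset and −0.18 with the replicate block added. The median of all genes also rose, to 0.070 with the GC content offset and 0.072 with gene length added. With the replicate block and the GC content offset it was 0.080. The values of Socs3 lay below these medians. So did those of Tnf and Rela without the gene length offset, and those of Akt1, Cebpb, Atf5 and Myd88 with it. Tnf and Rela with that offset, and Akt1 without it, lay above. The cause of each change was not tested.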

Other observations

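In each of the gene groups below, some genes had a positive and others a negative log2 fold change. Of 20 circadian clock genes, 11 had a positive and 9 a negative log2 fold change (median 0.055), and Nr1d2, the clock repressor REV-ERBβ, had 3.44, 6.93 and 6.93 CPM in ULP 4, 5 and 6, against 2.16, 2.44 and 1.995 CPM in UP 4, 5 and 6, without overlap. Clock, a core activator of the oscillator, had 2.69, 18.2 and 16.9 CPM in ULP 4, 5 and 6, against 2.79, 1.56 and 1.54 CPM in UP 4, 5 and 6, with ULP 4 among the UP libraries. Of 15 inflammasome genes, 9 had a positive value, and Nek7, the kinase that NLRP3 needs for its assembly, had 18.6, 34.9 and 35.3 CPM in ULP 4, 5 and 6, against 15.5, 14.3 and 11.8 CPM in UP 4, 5 and 6 (log2 fold change 1.09 ± 0.30 (SE)). Aim2, a sensor of DNA in the cytosol, had 23.9, 40.0 and 42.8 CPM in ULP 4, 5 and 6, against 25.01, 21.1 and 17.1 CPM in UP 4, 5 and 6, and again ULP 4 lay among the UP libraries.

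Of 23 cholesterol synthesis genes, 8 had a positive and 15 a negative log2 fold change (median −0.18), and Ebp, a sterol isomerase, had 58.8, 42.3 and 38.4 CPM in ULP 4, 5 and 6, against 60.9, 78.2 and 67.3 CPM in UP 4, 5 and 6, without overlap. Stard4, a carrier of sterols between membranes, lay on the other side, with 46.9, 67.4 and 70.1 CPM in ULP 4, 5 and 6, against 43.8, 36.8 and 37.2 CPM in UP 4, 5 and 6. Of 18 genes of the integrated stress response, 2 had a positive and 16 a negative value, with a median of −0.010, −0.42 and −0.40 in ULP 4, 5 and 6. Their median log2 fold change with GC content corrected for was −0.020, against 0.070 for all genes in that fit. Phgdh, the first enzyme of serine synthesis, had 957, 662 and 589.8 CPM in ULP 4, 5 and 6, against 948, 1089 and 1117 CPM in UP 4, 5 and 6, with ULP 4 among the UP libraries. Of 41 replication-dependent histone genes, which share near-identical sequences so that their counts are uncertain, 21 had a positive and 20 a negative value.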
